A study of Mus musculus with 6 samples.

Results

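The genes described here make cholesterol, control its synthesis through the sterol regulatory element binding proteins (SREBPs), or answer to the liver X receptors (LXRs) that drive its efflux. They were taken from a list of 31 gene names, each measured by the transcript cluster on the array that carries its symbol and no other. Of the 31, 27 were measured, among 22180 genes in all. Idi1 had only a cluster that carries a second symbol, and Acat2, Soat1 and Nr1h2 were not analysed here.

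RNA of mouse myeloid cells derived from fetal liver and kept in GM-CSF (1 ng/ml), a cytokine that drives myeloid growth, was hybridised to Affymetrix arrays (mouse gene 2.0 ST), 1 for each of 6 samples. The 3 uninduced samples (A, B and C) are the controls. The 3 induced samples (A, B and C) received 1000 ng/ml doxycycline for 72 hours, and the labels give their treatment as PU.1 expression, PU.1 being the ETS-family transcription factor encoded by Spi1. Doxycycline, a tetracycline analogue, is used to switch on engineered genes. The labels do not describe the construct, its promoter, the strain, or whether the cells are 1 clone, and no sample received the drug without PU.1 induction, so effects of the drug and of PU.1 cannot be told apart. The labels do not say that samples of a group were separate cultures, so p-values reflect no more than the spread among these 6 samples, and part of that may be technical.

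Cholesterol is built from acetyl-CoA through mevalonate, isoprenoid diphosphates, squalene and lanosterol. When sterols in the endoplasmic reticulum are low, Scap escorts the SREBPs to the Golgi, where they are cut free to enter the nucleus and switch on the synthesis genes; when sterols are high, the Insig proteins hold Scap back. The LXRs are activated by oxysterols and raise the transporters Abca1 and Abcg1, which pass cholesterol to lipoproteins. Macrophages take in cholesterol with engulfed cells and lipoproteins and pass it on through the efflux arm.

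The array medians lay between 6.53 and 6.78 on the log2 scale, and pairs of arrays of a group correlated at 0.973 to 0.988. The induced arrays B and C stood apart from induced A, with interquartile ranges of 2.17 and 2.21 against 2.37, and 2.40 to 2.62 on the uninduced arrays. Over all clusters induced A correlated at 0.991 with uninduced A, more than with induced B (0.973) or C (0.981), so it stood closer to an uninduced array than to its own group, and counts are given below with and without it. The 95th percentile of 1390 olfactory and vomeronasal receptor genes, taken here as the upper edge of background, was 7.05 to 7.39 on the uninduced arrays and induced A, and 7.99 and 7.86 on induced B and C. Spi1 was at 8.80, 8.65 and 8.84 on the uninduced arrays and at 9.13, 9.04 and 9.05 in induced A, B and C, so induced A had the highest value (difference 0.31, SE 0.12, limma adjusted p = 0.152). All leukocyte and myeloid markers but Ptprc (7 of 8) were above background on all 6 arrays. Macrophage markers were higher for 3 of 10 genes (Adgre1, Cd68 and Mrc1), with a summed level of 10.42 to 10.69 in uninduced and 11.36 to 11.71 in induced samples on the log2 scale, while Csf1r, Mertk, C1qb, Fcgr1 and Cd163 stayed in the range of background. Granulocyte markers were higher for 4 of 10 (Mpo, Ltf, S100a9 and Mmp8), with summed levels of 15.24 to 15.31 and 15.38 to 15.44. Ptprc, in the range of background, and Lyz2 were also higher. Of the hepatocyte markers 8 of 9, of the stromal markers 7 of 7, of the erythroid markers 5 of 5, of the megakaryocyte markers 4 of 4, of the endothelial markers 4 of 6, of the B lineage markers 4 of 5 and of the mast cell and basophil markers 6 of 8 did not rise above background on any array. The part of these shifts in the sterol results was not tested, and in bulk RNA fewer cells of a type cannot be told apart from less RNA per cell.

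Of the 17 measured enzymes of cholesterol synthesis 10 fell in the induced cells, and the LXR and efflux genes did not pass the test. All 27 measured genes had a mean below that of the uninduced samples, and 12 were called lower and 0 higher (limma, Benjamini-Hochberg adjusted p under 0.05 over all 22180 genes; at an unadjusted p under 0.05 the counts were 23 and 0). Among all genes tested, 1.05% were called lower and 0.374% higher, and 16.9% were lower at an unadjusted p under 0.05. The median log2 change was -0.75 over the 27 genes and 0.06 over all genes. For 22 of the 27, all 3 induced values lay below all 3 uninduced ones, as for 15.4% of all genes. The exceptions were Ebp, Scap, Nr1h3, Abcg1 and Mylip. No gene was filtered for low values, and 20 of the 27 were above background on all 6 arrays.

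By role, the synthesis enzymes had a median change of -0.83. The 5 genes of SREBP regulation had a median of -0.64 with 2 called lower, and the 4 LXR and efflux genes a median of -0.16 with 0 called. Changes ran from -1.57 to -0.48 among the enzymes and from -0.55 to -0.11 among the LXR and efflux genes, where the -0.55 belongs to Abca1, which no induced array showed above background. No test compared the roles with each other.

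**Figure D1:**
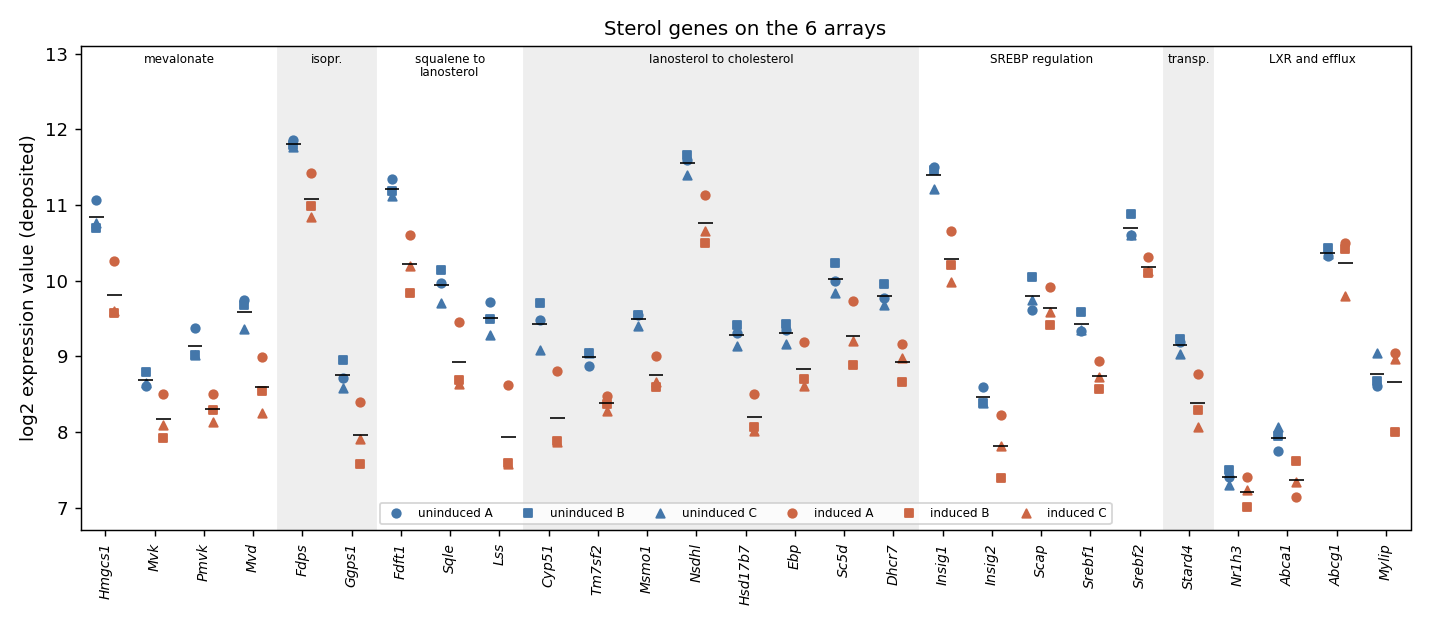
Deposited log2 expression values of the 27 measured genes, grouped by role, with the 3 uninduced samples in blue, the 3 induced in red, marker shapes for samples A, B and C, and black bars at group means (n = 3). The red points lie below the blue ones for 22 genes, and they interleave for Ebp, Scap, Nr1h3, Abcg1 and Mylip.

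The level of a gene bears on this comparison. Of the 27 genes, 24 belonged to the 5545 genes (25% of all) with the highest mean level, and in that class the median change of all genes was -0.34, 2.74% were called lower, and 36.3% had all induced values below all uninduced ones. Of these 24, 12 were called lower and 21 had a change further below 0 than the median of the class. The others were Scap, Abcg1 and Mylip. Cyclic loess, which evens out such differences that vary with level between arrays, moved the median of the class to -0.01. After it the median of the synthesis enzymes was -0.50, with all 17 still below 0, and 3 of the 27 genes were called lower (Lss, Hsd17b7 and Insig1) against 0.532% of all genes.

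**Figure D2:**
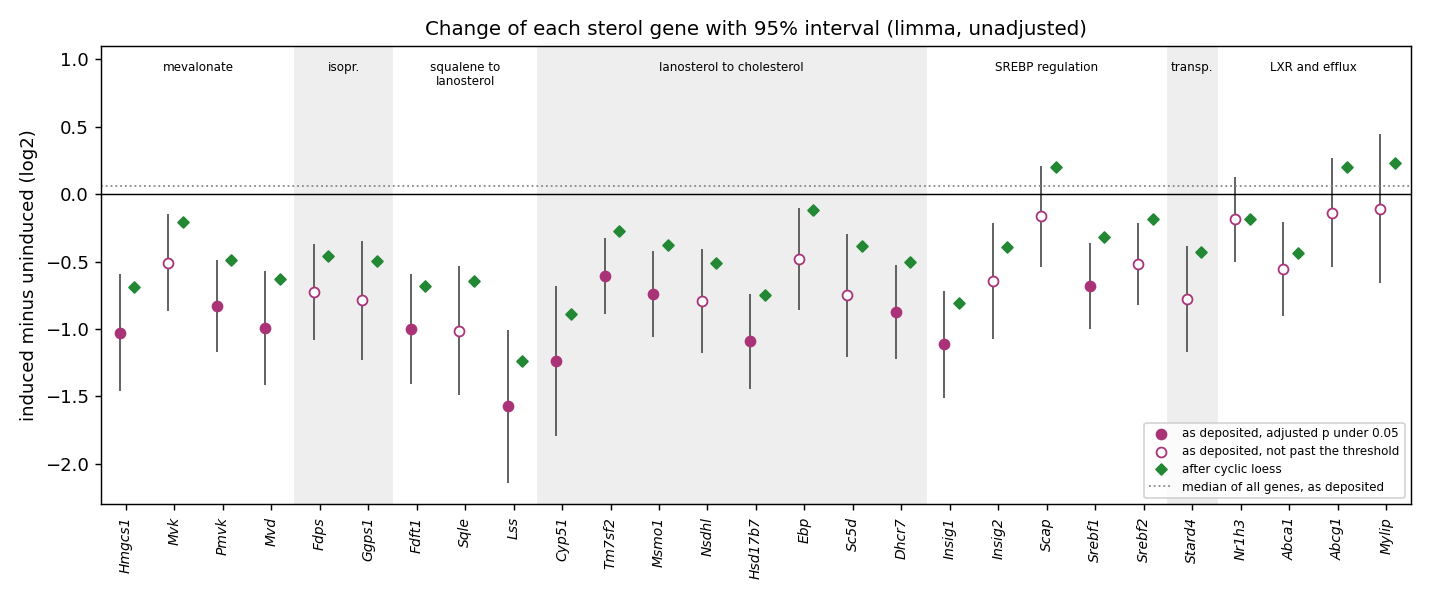
Change of each gene, induced minus uninduced on the log2 scale (y axis), as deposited (circles, filled where adjusted p was under 0.05, with the 95% interval from limma) and after cyclic loess (green diamonds). All 27 circles lie below 0, though that of Abca1 rests on induced values not above background, and after loess Scap, Abcg1 and Mylip lie above 0, at 0.20, 0.20 and 0.23.

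Promoter sequence is given next because 12 of the 27 genes were called in 1 direction. RefSeq promoters on GRCm38.p6 (250 bases before to 50 after a transcription start) were matched for 22 of the 27 genes. The others were Abcg1, Stard4, Fdft1, Fdps and Sqle. Both strands were searched for the NF-Y box CCAAT, read as ATTGG on the other strand, where the trimeric factor NF-Y binds and which commonly accompanies SREBP sites, and for the sterol response element TCACNCCAC. A gene was counted where at least 1 of its promoters held the motif. The NF-Y box was present for all 14 synthesis enzymes with a promoter, for 4 of 5 genes of SREBP regulation (all but Scap) and for 1 of 3 LXR and efflux genes (Mylip). For Dhcr7 it lay only in the promoter that begins at 143829964, inside the annotated gene (143823167 to 143848410). Of all 27025 genes with a promoter 41.1% had it, and of the 4421 among them that belong to the brightest 25% here, 42.7%. In single promoters the share was 37.4%. Within 100 bases before to 50 after the start it was present for 13 of the 14 enzymes, the exception being Pmvk. In that window 2 of 5 genes of SREBP regulation and 1 of 3 LXR and efflux genes had it. Of all genes 26.3% had it there, and of the brightest 25%, 29.7%.

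The sterol response element in these exact letters was found for 1 gene only, Hmgcs1, against 1.44% of all genes and 1.24% of single promoters. The Sp1 box GGGCGG, a common GC-rich element, was found for 12 of 14 enzymes, against 38.2% of all genes and 71.6% of the brightest 25%, and in 35.7% of single promoters. Within 100 bases before to 50 after the start the Sp1 box was found for 6 of 14 enzymes. There 31.5% of all genes and 61.3% of the brightest 25% had it. The PU.1 motif GAGGAAGT was found for 1 gene, Scap, at 1 site shared by both its promoters, against 3.69% of all genes and 3.20% of single promoters. The E-box CACGTG was found for 6 of the 22 genes, against 8.09% of all genes and 12.7% of the brightest 25% (7.15% of single promoters). A direct repeat of AGGTCA with 4 bases between, the LXR element, was found for 0 of the 22, and in 5 of 32851 promoters. These are matches of letters in a window, not measured binding, and a missing match says only that these letters were not in it.

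The 5 genes with the lowest change, beside Abca1, show how the boxes lie. Capitals mark the NF-Y box on either strand and, in Hmgcs1, the sterol response element. Each run is on the gene's own strand, starts 220 bases before the transcription start and stops where the annotated gene begins; Abca1 has no capitals.
Lss (+ strand, chr10:76531385-76531564): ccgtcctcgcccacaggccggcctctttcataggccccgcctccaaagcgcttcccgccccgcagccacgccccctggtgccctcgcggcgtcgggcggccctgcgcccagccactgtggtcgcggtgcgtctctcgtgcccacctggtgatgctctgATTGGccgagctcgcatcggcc
Cyp51 (- strand, chr5:4104698-4104917): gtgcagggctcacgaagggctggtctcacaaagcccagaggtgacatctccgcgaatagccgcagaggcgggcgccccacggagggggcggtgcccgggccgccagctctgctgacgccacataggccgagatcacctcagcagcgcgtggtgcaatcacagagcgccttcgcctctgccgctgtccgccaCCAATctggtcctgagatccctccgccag
Insig1 (+ strand, chr5:28071192-28071411): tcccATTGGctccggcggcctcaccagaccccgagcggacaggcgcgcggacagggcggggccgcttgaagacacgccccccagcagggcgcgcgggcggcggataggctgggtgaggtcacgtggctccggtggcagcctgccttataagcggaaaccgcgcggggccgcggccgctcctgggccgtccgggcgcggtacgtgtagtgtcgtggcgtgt
Hsd17b7 (- strand, chr1:169969243-169969425): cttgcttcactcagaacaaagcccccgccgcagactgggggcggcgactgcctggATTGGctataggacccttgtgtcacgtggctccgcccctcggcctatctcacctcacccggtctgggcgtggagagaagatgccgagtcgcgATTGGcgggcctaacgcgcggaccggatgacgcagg
Hmgcs1 (+ strand, chr13:119690131-119690350): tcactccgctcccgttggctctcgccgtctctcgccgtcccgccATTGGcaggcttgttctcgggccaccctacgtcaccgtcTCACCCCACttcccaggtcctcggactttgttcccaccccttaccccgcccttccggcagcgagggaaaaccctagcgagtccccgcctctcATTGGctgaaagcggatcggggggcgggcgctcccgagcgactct
Abca1 (- strand, chr4:53159989-53160115): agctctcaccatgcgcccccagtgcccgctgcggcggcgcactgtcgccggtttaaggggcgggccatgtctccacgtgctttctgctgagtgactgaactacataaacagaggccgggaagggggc
Counted from the transcription start, the box begins at -62 in Lss and at -29 in Cyp51. In these runs Hsd17b7 has boxes at -165 and -73, and Insig1 has one at -216. In Hmgcs1 the element TCACCCCAC begins at -137, between NF-Y boxes at -176 and -45.

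**Figure D3:**
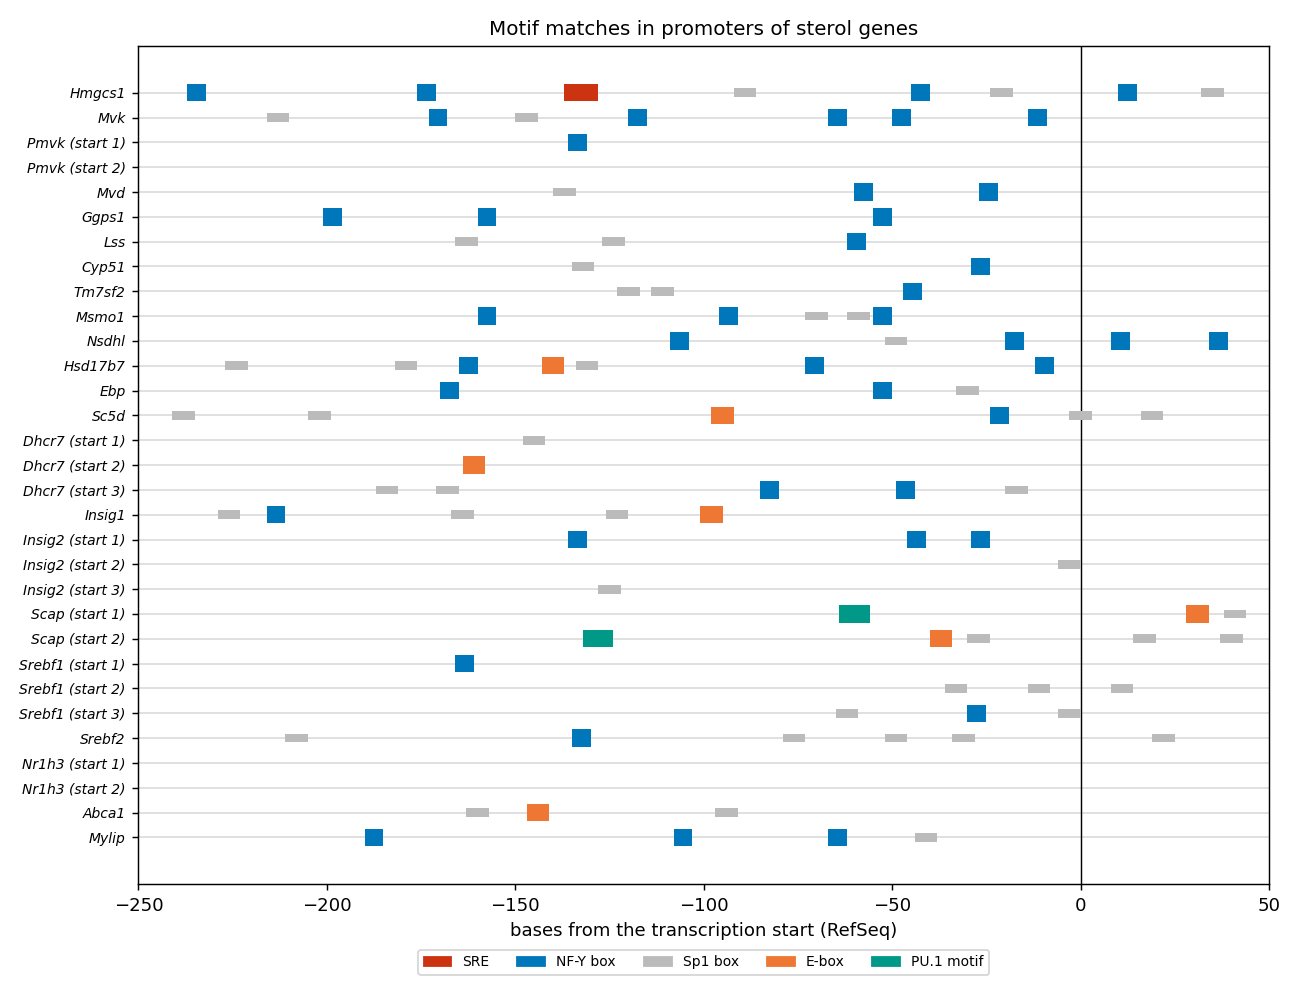
Motif matches by distance in bases from the RefSeq transcription start (x axis), 1 line per promoter of the 22 genes; genes with several starts have several lines, and the sterol response element is drawn as SRE. Blue NF-Y boxes appear on at least 1 line of each of the 14 synthesis enzymes, and the single red element is in Hmgcs1.

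Of the enzymes that make and activate mevalonate, 3 of 4 fell. Hmgcs1 (chromosome 13, 119690351 to 119708260 in GRCm38), which condenses acetyl-CoA with acetoacetyl-CoA, had values of 11.06, 10.69 and 10.76 on the uninduced arrays A, B and C, and of 10.26, 9.57 and 9.59 on the induced arrays in the same order, as for all genes below. All induced samples were lower, B and C more than A, and the change was -1.03 (SE 0.20, adjusted p = 0.0319), or 2.04-fold lower (95% interval 1.51 to 2.75). Pmvk, phosphomevalonate kinase, went from 9.38, 9.01 and 9.01 to 8.50, 8.29 and 8.13 (-0.83, adjusted p = 0.0284). Mvd, which decarboxylates the product to isopentenyl diphosphate, went from 9.74, 9.67 and 9.35 to 8.99, 8.54 and 8.26 (-0.99, adjusted p = 0.034). Mevalonate kinase, Mvk, was at 8.61, 8.79 and 8.65 and at 8.50, 7.92 and 8.09, with induced A just under the lowest uninduced value. Its difference of -0.51 (SE 0.16) did not pass (adjusted p = 0.119). With induced B, under its edge of background, raised to that edge, the difference was -0.49.

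Neither measured isoprenoid synthase passed the test. Fdps, which joins units into farnesyl diphosphate, was at 11.86, 11.79 and 11.77 in uninduced and 11.42, 10.99 and 10.84 in induced cells (-0.72, adjusted p = 0.0578). Ggps1, which extends it to the geranylgeranyl diphosphate used to anchor small GTPases, was at 8.71, 8.95 and 8.58 and at 8.39, 7.58 and 7.90 (-0.79, adjusted p = 0.0848). The groups of both genes were fully apart, but the 3 induced values spread further than the uninduced ones. For Ggps1, induced B was under its edge of background, and with it raised to that edge the change was -0.65.

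From squalene to lanosterol, the first steps committed to sterols, Fdft1 and Lss fell. Fdft1, squalene synthase, was at 11.34, 11.18 and 11.11 and then at 10.61, 9.84 and 10.19, a change of -0.999 (SE 0.19, adjusted p = 0.0279). Lss (chromosome 10, 76531565 to 76557139), which folds the squalene chain into lanosterol, was at 9.72, 9.49 and 9.29 in uninduced cells and at 8.62, 7.58 and 7.57 in induced ones. The deposited values gave the lowest change of the 27 genes, -1.57 (SE 0.26, adjusted p = 0.0155), or 2.98-fold lower (95% interval 2.01 to 4.41). Only 1 of 3 induced arrays, A, showed it above background. With B and C raised to their edges of background the change was -1.34, or 2.53-fold lower, a point value without the spread among samples. After cyclic loess the change of Lss was -1.23 (95% interval -1.73 to -0.74). Sqle, the squalene epoxidase, was at 9.97, 10.14 and 9.71 and at 9.45, 8.68 and 8.64. Its difference of -1.01 was as large as that of Fdft1 but came with a wider SE of 0.22 and missed the threshold (adjusted p = 0.0514).

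All 8 enzymes from lanosterol to cholesterol were measured, and 5 fell. Hsd17b7 (chromosome 1, 169949535 to 169969242), a ketosteroid reductase needed to strip methyl groups from the sterol ring, was at 9.31, 9.41 and 9.13 and at 8.50, 8.07 and 8.01. Its change of -1.09 (SE 0.16) had the smallest adjusted p of the 27 genes, 0.00862, and the fall was 2.13-fold (95% interval 1.67 to 2.72). Cyp51, the lanosterol demethylase, went from 9.48, 9.70 and 9.08 to 8.81, 7.88 and 7.87 (-1.24, adjusted p = 0.0416; -1.20 with induced B, under its edge of background, raised to it). The SD was 0.31 in the uninduced and 0.54 in the induced group, both smaller than the change. Dhcr7, whose product makes the final reduction to cholesterol, went from 9.77, 9.96 and 9.67 to 9.16, 8.65 and 8.98 (-0.87, adjusted p = 0.0258). Msmo1, a methyl sterol oxidase, went from 9.54, 9.54 and 9.40 to 9.001, 8.60 and 8.66 (-0.74, adjusted p = 0.0349). Tm7sf2, a sterol reductase, went from 8.87, 9.04 and 9.04 to 8.48, 8.37 and 8.28 (-0.61, adjusted p = 0.0492). The induced samples of Tm7sf2 lay close together, and induced A hardly stood apart from B and C.

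Nsdhl, Sc5d and Ebp did not pass. Nsdhl, the dehydrogenase that works with Msmo1 and Hsd17b7, was at 11.60, 11.66 and 11.39 and at 11.12, 10.50 and 10.65 (-0.79, adjusted p = 0.055). Sc5d, a sterol desaturase, was at 9.99, 10.23 and 9.83 and at 9.72, 8.88 and 9.21 (-0.75, adjusted p = 0.0998). Ebp, a sterol isomerase, was the only enzyme of synthesis whose groups overlapped, at 9.35, 9.43 and 9.16 against 9.19, 8.71 and 8.60 (-0.48, 95% interval -0.86 to -0.10, adjusted p = 0.133).

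Among the SREBP regulators, Insig1 and Srebf1 fell. Insig1 (chromosome 5, 28071412 to 28078662) both holds SREBP in the endoplasmic reticulum and is a classic SREBP target. It was at 11.50, 11.46 and 11.21 in uninduced cells and at 10.66, 10.20 and 9.98 in induced ones, a change of -1.11 (SE 0.18, adjusted p = 0.0143) or 2.17-fold. Its paralog Insig2, which acts on the same complex, was at 8.60, 8.38 and 8.38 and at 8.22, 7.40 and 7.81, above background on 1 of 3 induced arrays (-0.64, adjusted p = 0.111; -0.43 with B and C raised to their edges). Srebf1, the SREBP gene tied most to fatty acid synthesis, went from 9.34, 9.58 and 9.35 to 8.93, 8.57 and 8.72 (-0.68, SE 0.14, adjusted p = 0.0492). Srebf2, the one tied most to cholesterol synthesis, was at 10.61, 10.88 and 10.60 and at 10.31, 10.10 and 10.12. Its groups were apart, but the difference of -0.52 did not pass (limma adjusted p = 0.0919). The limma adjusted p of Srebf2 was 0.0216 without induced A, when 15.9% of all genes were called lower, and 0.365 after cyclic loess. The array gives 1 value for all isoforms of Srebf1.

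Scap, the escort, was at 9.61, 10.05 and 9.75 and at 9.91, 9.41 and 9.59. The groups overlapped, and the 95% interval of its difference of -0.16 ran from -0.54 to 0.21 (adjusted p = 0.482). After cyclic loess it was at 0.20. Stard4, a soluble carrier of cholesterol between membranes whose gene SREBP controls, was at 9.19, 9.23 and 9.03 and at 8.77, 8.29 and 8.07 (-0.78, adjusted p = 0.0649).

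Of the 4 measured LXR and efflux genes 0 passed the test by limma, and 1 (Abca1, lower) had an unadjusted p under 0.05. Abca1 (chromosome 4, 53030789 to 53159988), which loads cholesterol onto lipid-poor apolipoprotein, was at 7.75, 7.94 and 8.07 in uninduced cells, above background on all 3 arrays, and at 7.14, 7.62 and 7.34 in induced cells, where no array showed it above background. The difference of the deposited values was -0.55 (SE 0.16, adjusted p = 0.102), but with each induced value raised to its array's edge of background it was -0.17, so the size of the difference was not measured.

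Abcg1, the transporter that passes cholesterol to mature lipoprotein, was at 10.33, 10.43 and 10.35 and at 10.49, 10.42 and 9.79. Induced A lay above every uninduced value and induced C below them all, and the change was -0.14 (95% interval -0.54 to 0.27, adjusted p = 0.586), or 0.08 without induced C. Mylip, an LXR-induced ubiquitin ligase that marks lipoprotein receptors for degradation, was at 8.61, 8.67 and 9.04 and at 9.04, 8.001 and 8.96, with the low value in induced B only (-0.11, adjusted p = 0.763; 0.23 without induced B). The LXR gene Nr1h3 was at 7.40, 7.49 and 7.30 and at 7.40, 7.005 and 7.23, above background on 1 of 3 induced arrays, A (-0.19, 95% interval -0.50 to 0.13, adjusted p = 0.354). For none of these 3 do the data fix a direction: Abcg1 and Mylip turned above 0 after cyclic loess, and Nr1h3 was at 0.01 in induced A alone.

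The 3 induced samples differed in how far they moved. The median difference of the synthesis enzymes from the uninduced mean was -0.51, -1.14 and -0.96 in samples A, B and C. For SREBP regulation it was -0.39, -0.86 and -0.64, and for LXR and efflux 0.06, -0.35 and -0.37. Induced A was the highest of the 3 induced arrays for 26 of the 27 genes, all but Abca1, whose induced values have no order since none was above background, and for 81.8% of the 5545 genes of highest mean level. In Insig1, for example, above background on every array, induced A differed from the uninduced mean by -0.73, while B and C differed by -1.19 and -1.42.

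**Figure D4:**
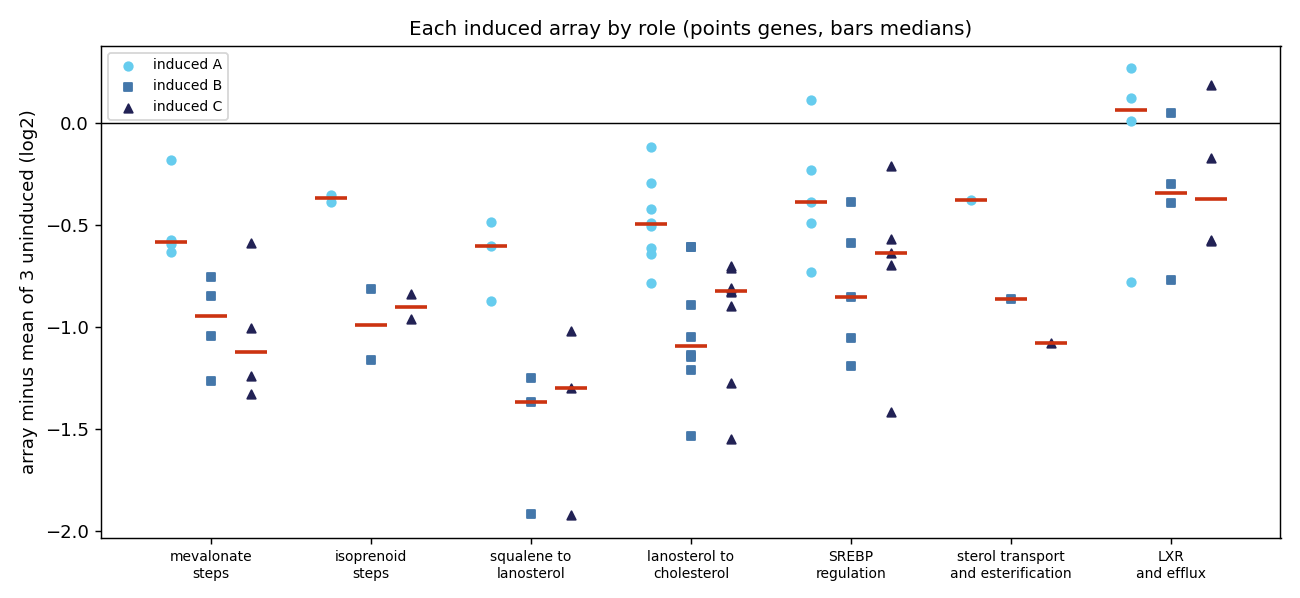
Difference of each induced array from the mean of the 3 uninduced arrays on the log2 scale (y axis) by role, each point a gene and each red bar a median. Induced A (light circles) lies nearest 0 in each role, for example with a median of -0.50 against -1.10 in B for the steps from lanosterol to cholesterol.

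The number of calls depended on single arrays. Of the 27 genes, 0 were called lower without uninduced A or without induced C, 1 (Hsd17b7) without uninduced B or induced B, 5 without uninduced C, and 22 without induced A, when 15.9% of all genes were called lower. Over all 22180 genes, 58 were called lower without uninduced A, against 232 with every array kept. The medians of the synthesis enzymes lay between -0.99 and -0.73 with any 1 array left out.

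Other genes of sterol metabolism were taken from lists outside the 27. Of 13 further enzymes of the sterol and isoprenoid branches 1 was called lower, Rabggta, a subunit of the transferase that puts geranylgeranyl groups on Rab proteins (-0.77, adjusted p = 0.0448); the median was -0.48 and all 13 were below 0, as were 9768 of all 22180 genes. After cyclic loess, which took out the shift of bright genes, the median of these 13 was -0.12 with 0 called lower. Of 10 genes of SREBP processing and lipoprotein uptake 2 were called lower, with a median of -0.50, or -0.15 after cyclic loess. They were Lpin1, a phosphatidate phosphatase and regulator of SREBP in the nucleus (10.14, 10.21 and 9.90 to 8.96, 8.84 and 8.50; -1.32, adjusted p = 0.0025), and Rnf145, a ubiquitin ligase of the endoplasmic reticulum (-0.81, adjusted p = 0.0173). Rnf145 was above background on 1 of 3 induced arrays, A, so the size of its change rests partly on values in the range of background. The proteases that release SREBP, Mbtps1 and Mbtps2, were at -0.44 and -0.57 and did not pass. These proteases are named after their values were seen.

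Of 15 further LXR partners and targets 1 was called lower and 0 higher (median -0.31, 11 of 15 below 0). After cyclic loess the median was -0.01, with 1 called lower. The called gene was Pltp, the phospholipid transfer protein, at 7.92, 7.93 and 8.42 in uninduced cells (limma adjusted p = 0.00648). It was not above background on any induced array, and with values raised to background it was 1.27-fold lower. That value takes, on each induced array, the higher of the edge of background and the gene's value, without the spread among samples. Of 19 genes of sterol transport, storage and oxidation 0 passed the test by limma (7 lower and 0 higher at an unadjusted p under 0.05). Their median had no settled direction, at -0.23 as deposited, -0.06 after quantile normalization and 0.05 after cyclic loess. The brightest were Lamp2, Npc2 and Osbpl9, of lysosomal membrane, lysosomal sterol egress and sterol transfer, at -0.04, -0.28 and -0.38. Of 12 fatty acid genes tied to SREBP1, 4 were called lower (Scd1, Acss2, Elovl6 and Me1, from -2.37 to -1.22), and the median was -0.76, or -0.49 after cyclic loess. Me1 was above background on all 3 induced arrays, Scd1 and Acss2 on 2 of 3, and Elovl6 on 1 of 3. The sizes of the changes of Scd1, Acss2 and Elovl6 therefore rest partly on values in the range of background.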

How the data were processed

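Gene expression was measured on 1 array per sample in 3 uninduced and 3 induced samples, grouped by their titles. The values are log2 expression values as deposited by the authors, 1 per transcript cluster (41345 clusters). Partek and mm10 were used, per the submitters' processing notes. For its version, the background correction and the normalization, the sources used here give nothing. The scale was read from the values, and centring stays unknown. Gene symbols came from the platform annotation at GEO: 23521 carried 1 symbol, 1814 several and 16010 none. A gene's cluster with the highest mean over the 6 arrays was used. Of the 27 genes only Scap had a second cluster, at 6.03 to 6.82 and so in the range of background.

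Differences were tested two-sided by lmFit and eBayes of limma 3.58.1 (R 4.3.3) with no covariate or filter, with Benjamini-Hochberg adjustment over 22180 genes and a threshold of 0.05. Intervals are unadjusted 95% intervals. The fit was tested on simulated data. Coordinates, and promoters read with Python 3.11.15, are RefSeq's on GRCm38, which is mm10. All 27 measured genes may be named, and of the other lists those past the threshold or the 3 brightest where none passed. Genes and lists were chosen with earlier results of these data known. Alternatives were other normalizations, filters, variance models, weights, cluster summaries, thresholds and arrays left out. The number of arrays limits the precision.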

Additional observations from a re-analysis of the deposited data

How the results depend on the processing

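Across the alternatives the 12 genes called lower became 5 after quantile normalization, 3 after median centring and 3 after cyclic loess. They became 24 with array weights and 0 when all transcript clusters were tested. At adjusted p thresholds of 0.01 and 0.1 the counts were 1 and 19. The share of all genes at those thresholds is not given here, so these counts have nothing to be set against. Leaving out 1 array gave 0 to 22. No gene of the 27 was called higher under any of these. Over all genes, those called lower (232) numbered 158 after quantile normalization, 153 after median centring, 118 after cyclic loess and 5681 with array weights. They numbered 34 over all clusters and 47 to 3535 with 1 array left out. Those called higher (83) numbered 46, 83, 5825, 31, 41 and 45 to 1998 under the same settings. The median of synthesis enzymes was -0.50 after cyclic loess and -0.51 with induced B and C left out, that of SREBP regulation -0.32 and -0.39, and that of LXR and efflux 0.0113 and 0.0628. Signs turned for genes not past the threshold: Scap, Abcg1 and Mylip were at 0.0707, 0.0579 and 0.0751 after quantile normalization, at 0.20, 0.20 and 0.23 after cyclic loess, and at 0.11, 0.12 and 0.27 with induced B and C left out, where Nr1h3 was at 0.00561. Scap was at 0.0444 as the mean of its clusters. With 1 array left out Abcg1 ran from -0.27 to 0.0837 and Mylip from -0.29 to 0.23. The cause of these shifts was not tested. All clusters tested means more features to adjust over, and arrays left out mean fewer samples.

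The letter as a replicate block gave 16 of the 27 genes lower, and 425 lower and 174 higher over all genes. Deviations of samples with the same letter correlated at -0.31, -0.28 and 0.42, so the letters were not taken to pair the samples.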
